A study of Mus musculus with 6 samples.

Results

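The genes described here are 9 genes of MHC class II antigen presentation: the class II chains H2-Aa, H2-Ab1 and H2-Eb1, the invariant chain Cd74, the peptide editor chains H2-DMa and H2-DMb1, the transactivator Ciita, the protease Ctss and the thiol reductase Ifi30. They were chosen by gene symbol, with every array probe set annotated to a member, which gave 19 probe sets of the 45037 that are not array controls. Probe sets with 1 gene symbol name 18193 genes, 8 of the 9 members among them. H2-DMb1 was measured only by 2 probe sets that it shares with its near copy H2-DMb2.

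The study measured total RNA from heart ventricles of 6 mice on Affymetrix-type arrays, 1 array per mouse. The 3 Trex1 KO animals (Trex1KO/RAG2KO) lack Trex1, the main exonuclease that degrades DNA in the cytosol, and the 3 Trex1 WT animals (Trex1WT/RAG2KO) carry the wild-type gene. All 6 lack Rag2, which is needed to assemble antigen receptor genes, so that neither group forms mature T or B lymphocytes. The animals form 3 littermate pairs, A, B and C, each with 1 Trex1 KO and 1 Trex1 WT mouse, and the labels give no age, strain, sex or treatment.

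Class II molecules carry peptides of proteins taken up from outside the cell to the surface of antigen presenting cells, where helper T cells read them. An alpha and a beta chain assemble with the invariant chain, proteases of the endosome trim the invariant chain down to a short peptide in the groove, and the DM molecule exchanges that peptide for an antigenic one. In the heart, macrophages and dendritic cells are the usual carriers of class II, B cells carry it elsewhere, and interferon gamma can induce it in many other cells through Ciita.

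Per-animal values are listed in the order of pairs A, B and C throughout. The probe set annotated to Atrip and Trex1 together had signals of 9.45, 20.6 and 34.2 in Trex1 KO hearts, against 714, 340 and 887 in Trex1 WT hearts, and fell without overlap (log2 difference -4.10, SE 0.38, limma adjusted p = 0.00109). The ventricular cardiomyocyte markers were all measured (7 of 7, 0 passing), with log2 differences of -0.10 for Ryr2 and -0.02 for both Tnnt2 and Tnni3. Of the 4 atrial markers Sln never exceeded 69.8, the highest signal of the bacterial controls that have no counterpart in the tissue, and the others had differences above 0. Nppa, the atrial natriuretic peptide, had signals of 28144 to 35782 in Trex1 KO and 10934 to 19079 in Trex1 WT hearts (log2 difference 0.996, limma adjusted p = 0.126 without and 0.00886 with the block). Myl7 and Myl4 had differences of 0.34 and 0.18 (limma adjusted p = 0.979 and 0.959). The Actb 3' to 5' ratio, a measure of RNA integrity, was 1.60 to 1.68 in Trex1 KO and 1.80 to 2.29 in Trex1 WT hearts, which did not overlap. The 18S signal was 798 to 2834 in Trex1 KO and 924 to 13708 in Trex1 WT hearts, which overlapped. The part of RNA quality in the differences was not tested.

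The class II chains and the invariant chain had lower signals in each Trex1 KO heart than in its Trex1 WT littermate. H2-Aa, the alpha chain of the I-A molecule, had signals of 4129, 6754 and 4230 in Trex1 KO hearts, against 6550, 12312 and 6559 in Trex1 WT hearts. H2-Ab1, the beta chain of I-A, had signals of 768, 1318 and 1159 in Trex1 KO hearts, against 1803, 2978 and 1629 in Trex1 WT hearts. Both animals of pair B were the highest of their group for both chains. For H2-Ab1 the groups did not overlap, whereas for H2-Aa the Trex1 KO animal of pair B lay just above the Trex1 WT animals of pairs A and C.

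H2-Eb1, the beta chain of the I-E molecule, had signals of 1742, 2856 and 1934 in Trex1 KO hearts, against 2951, 5381 and 3139 in Trex1 WT hearts. Cd74, the invariant chain that fills the class II groove until the endosome, had signals of 2411, 4328 and 3078 in Trex1 KO hearts, against 4620, 8192 and 4917 in Trex1 WT hearts. For both genes the highest Trex1 KO signal, in pair B, lay just under the lowest Trex1 WT signal, in pair A. As a share of the Trex1 WT littermate, Cd74 reached 52.2%, 52.8% and 62.6% in Trex1 KO. For H2-Ab1 the share was 42.6%, 44.3% and 71.1%, so that pair C showed the smallest difference of the 3. H2-Ab1 averaged 1082 ± 283 in Trex1 KO and 2137 ± 734 in Trex1 WT hearts, and Cd74 averaged 3272 ± 973 in Trex1 KO and 5910 ± 1982 in Trex1 WT hearts (SD, n = 3 each).

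**Figure D1:**
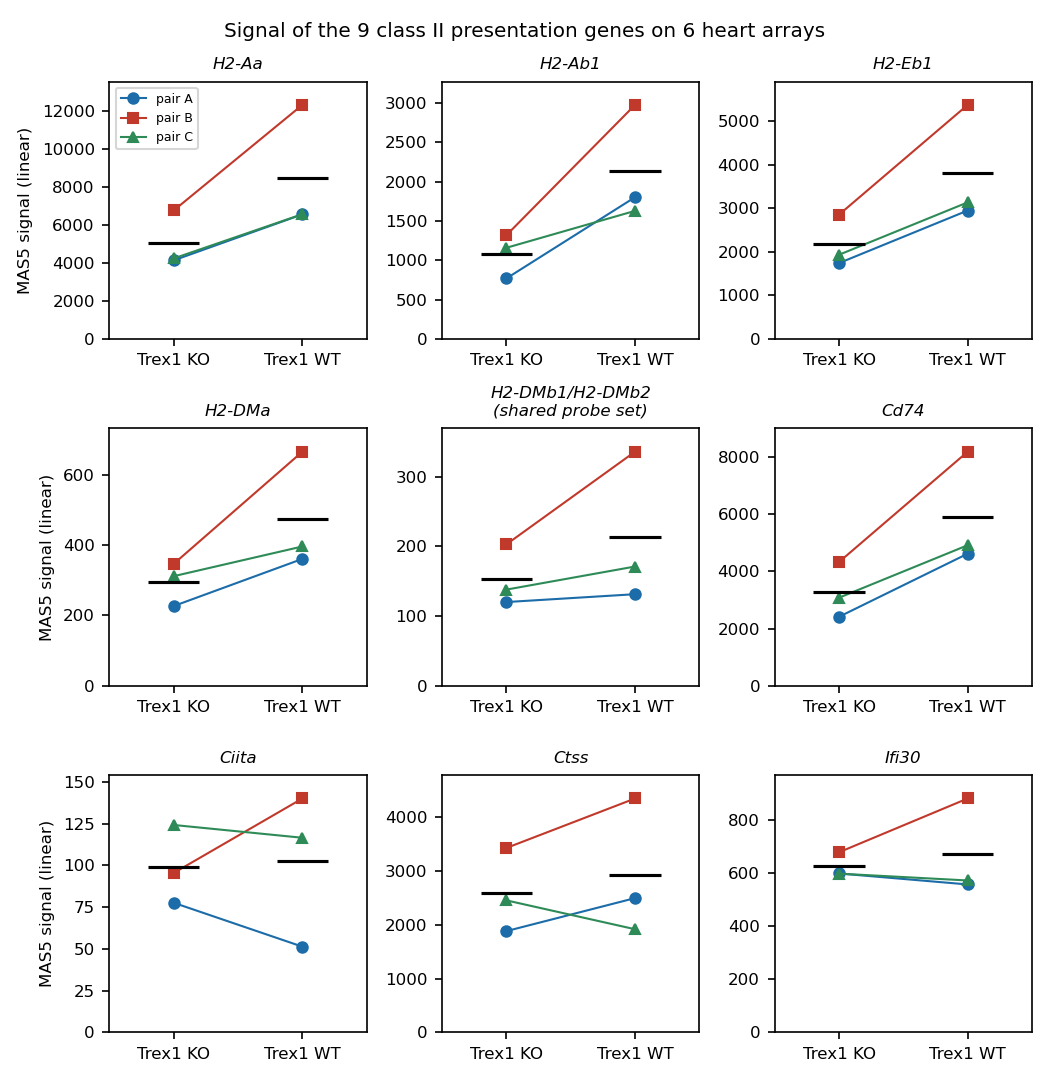
MAS5 signal on a linear scale for the brightest probe set of each of the 9 genes, with Trex1 KO left of Trex1 WT, lines joining littermates and black bars marking group means (n = 3 each). H2-Aa, H2-Ab1, H2-Eb1, Cd74, H2-DMa and the shared H2-DMb1/H2-DMb2 probe set are lower in the Trex1 KO animal of all 3 pairs, and Ciita, Ctss and Ifi30 are not.

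The question for these genes was whether Trex1 KO and Trex1 WT hearts differed, and the answer turned on whether the littermate pairs entered the fit. In limma across all 27022 tested probe sets, without the pairs, 0 of the 9 genes passed a Benjamini-Hochberg adjusted p of 0.05 in either direction, where 0.0390% of all 12811 tested genes were called lower and 0.312% higher. With the littermate pair as a block, H2-Aa, H2-Ab1, H2-Eb1 and Cd74 fell, 4 of 9, where 0.0937% of tested genes were called lower. No member rose in that fit, where 0.531% of tested genes were called higher. An unadjusted p under 0.05 without the block was reached by 9 of the 15 tested member probe sets. The share of all tested probe sets that reached it was not counted, so this count has no baseline and describes the members only. H2-Aa and H2-Ab1 account for 4 and 3 of the 15, so these are not separate results.

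Estimates were the same in both fits and the intervals were not. H2-Ab1 had a log2 difference of -0.95 (95% interval -1.50 to -0.41, limma adjusted p = 0.405), and with the block the interval was -1.28 to -0.63 (limma adjusted p = 0.0321). Cd74 had a log2 difference of -0.84 (SE 0.24, limma adjusted p = 0.569), and the SE with the block was 0.09 (limma adjusted p = 0.00385). For H2-Eb1 the difference was -0.79 (limma adjusted p of 0.648 without and 0.00537 with the block), and for H2-Aa it was -0.72 (limma adjusted p of 0.785 without and 0.00751 with the block). Each of the 4 differences was below 0 in 3 of 3 pairs, as was that of 17.9% of all tested genes. The blocked calls also needed the intensity trend in the estimate of the spread: without it, 0 members and 0 of all probe sets passed with the block in limma. Without pair A the blocked call of H2-Ab1 was lost (limma adjusted p = 0.131), and without pair C H2-DMa passed as well.

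**Figure D2:**
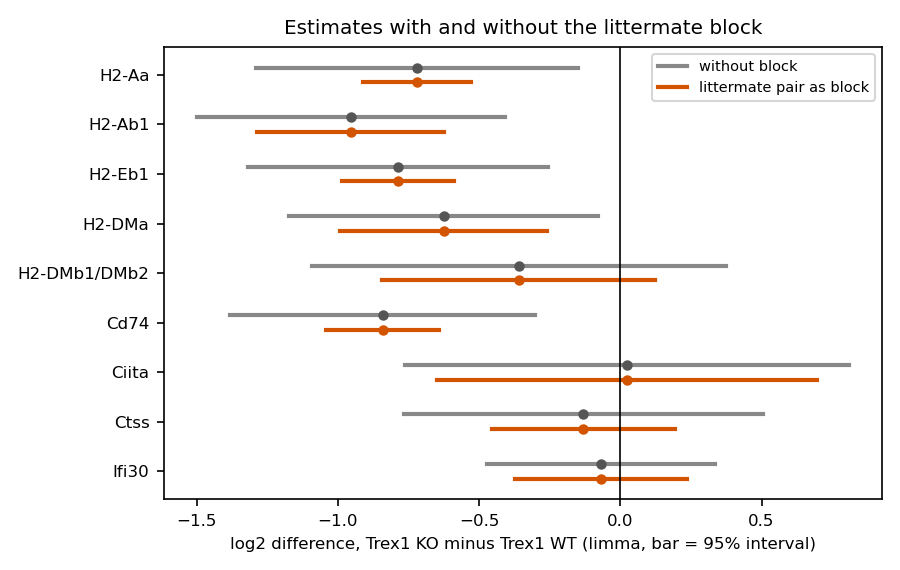
Log2 difference (Trex1 KO minus Trex1 WT) and 95% interval from limma for the brightest probe set of each gene, without the block (grey, upper bar) and with the littermate pair as a block (orange, lower bar). The points coincide, and the intervals of H2-Aa, H2-Ab1, H2-Eb1 and Cd74 narrow away from 0 with the block.

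Signals also varied between litters. Trex1 WT B had between 1.56 and 2.22 times the mean signal of Trex1 WT A and C over the 9 genes, the lowest ratio for Ifi30 and the highest for the shared H2-DMb1/H2-DMb2 probe set. Trex1 KO B had between 0.946 and 1.62 times the mean of Trex1 KO A and C. Averaged over H2-Aa, H2-Ab1, H2-Eb1 and Cd74, each centred on its mean over the 6 arrays, the log2 level was -0.76, -0.0022 and -0.48 in Trex1 KO hearts, and 0.13, 0.96 and 0.14 in Trex1 WT hearts. Trex1 KO B thus lay just below Trex1 WT A and C, while the mean difference within a pair was -0.89 (A), -0.96 (B) and -0.62 (C). The pairs' RNA measures differed too. The Actb ratio was 1.66 in Trex1 KO and 2.09 in Trex1 WT in pair A, and 1.60 and 2.29 in pair B. In pair C it was 1.68 in Trex1 KO and 1.80 in Trex1 WT, with 18S signals of 798 and 924. There the 4 genes had log2 differences between -0.69 and -0.49. The mean difference was thus largest in pair B, where the ratios lay farthest apart, and smallest in pair C. Gene by gene, H2-Aa and H2-Eb1 differed most in pair B. H2-Ab1 and Cd74 differed slightly more in pair A (-1.21 and -0.93) than in pair B (-1.17 and -0.92). The part of RNA quality in the order of the pairs was not tested.

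Several probe sets measured the same chain, and those of the class II chains ran the same way. All 4 probe sets of H2-Aa were tested, and their log2 differences ranged from -1.12 to -0.71, each below 0 in 3 of 3 pairs. The dimmest of the 4 had signals of 174, 221 and 121 in Trex1 KO hearts, against 291, 601 and 317 in Trex1 WT hearts, without overlap. With the block, 2 of the 4 passed (limma adjusted p = 0.00751 and 0.0300), and the other two had limma adjusted p-values of 0.0597 and 0.0880. The 3 probe sets of H2-Ab1 had differences from -0.95 to -0.63, of which 2 passed with the block (limma adjusted p = 0.0321 and 0.0300) and the third did not (0.119). All 4 probe sets of H2-Aa and 2 of the 3 of H2-Ab1 carry a suffix that Affymetrix gives to designs whose probes can bind related transcripts, and how much of their signal comes from such transcripts was not tested.

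Over all 15 tested probe sets of the 9 genes, 14 had a log2 difference below 0, 11 were lower in all 3 pairs and 7 had every Trex1 KO array below every Trex1 WT array. Among all tested probe sets, 15.3% were lower in all 3 pairs and 4.99% had Trex1 KO wholly below Trex1 WT. With the block 6 of the 15 passed as lower, where 0.0592% of tested probe sets did. The 6 belong to H2-Aa, H2-Ab1, H2-Eb1 and Cd74. The remaining 4 of the 19 probe sets, of H2-DMa, Ciita and Ifi30, lay under the filter on dim signals, and their highest signal was 73.0.

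**Figure D3:**
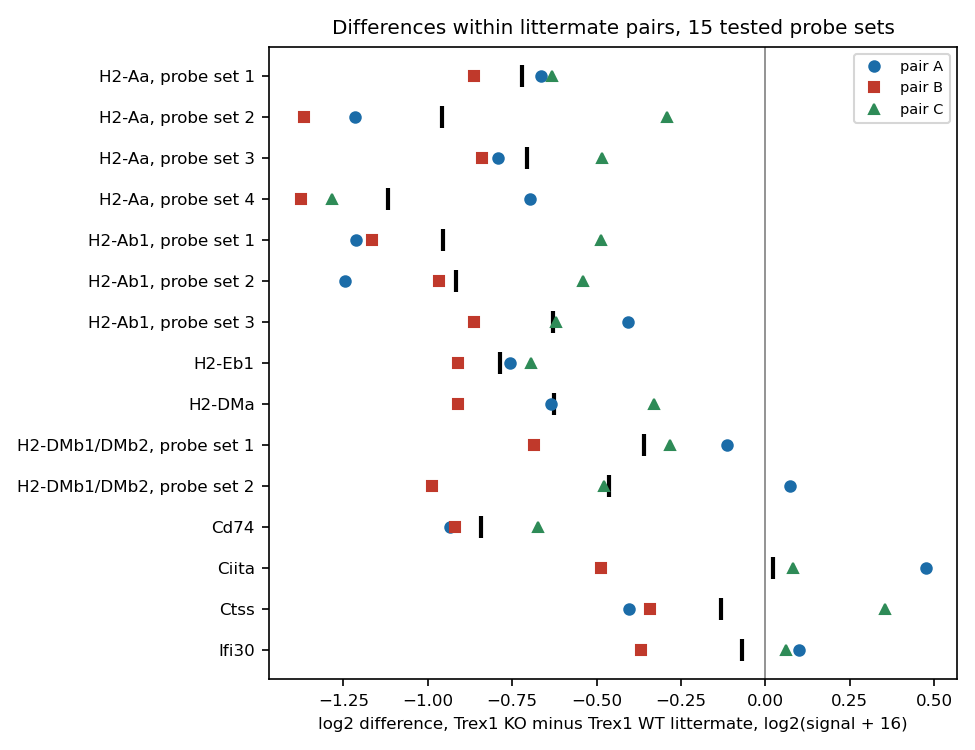
Log2 difference of the Trex1 KO animal minus its Trex1 WT littermate, on log2(signal + 16), for the 15 tested probe sets in pairs A (circles), B (squares) and C (triangles), with the mean as a black tick. Every point of H2-Aa, H2-Ab1, H2-Eb1, H2-DMa and Cd74 lies left of 0, and the points of Ciita, Ctss and Ifi30 lie on both sides.

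Promoters are shown because class II genes are known for a shared promoter module, in which RFX binds the X1 box, CREB the X2 box and NF-Y the Y box, and Ciita docks on all of them. RefSeq promoters of build GRCm38.p6 were held for 6 of the 9 members: H2-Aa, H2-Eb1, H2-DMa, H2-DMb1, Ctss and Ifi30. The 150 bases before the start site are printed for the 3 members whose window held the Y box, H2-Aa (chr17:34287824-34287973, minus strand), H2-Eb1 (chr17:34305717-34305866, plus strand) and H2-DMb1 (chr17:34153041-34153190, plus strand), and for Ctss, whose window held the interferon element (chr3:95526636-95526785, plus strand). Capitals mark the Y box TGATTGG, the X1 core GNAACNGAT, the X2 core TGACGTCA and the core of the interferon-stimulated response element GAAANNGAA, searched on both strands.
H2-Aa: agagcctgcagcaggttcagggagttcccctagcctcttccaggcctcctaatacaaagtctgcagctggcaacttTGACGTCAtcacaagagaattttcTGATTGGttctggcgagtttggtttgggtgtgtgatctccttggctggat
H2-Eb1: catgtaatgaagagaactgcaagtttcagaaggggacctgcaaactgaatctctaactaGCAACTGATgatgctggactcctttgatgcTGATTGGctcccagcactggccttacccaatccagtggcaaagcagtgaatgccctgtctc
H2-DMb1: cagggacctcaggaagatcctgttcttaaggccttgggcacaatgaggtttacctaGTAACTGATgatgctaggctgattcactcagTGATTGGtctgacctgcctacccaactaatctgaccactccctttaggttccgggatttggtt
Ctss: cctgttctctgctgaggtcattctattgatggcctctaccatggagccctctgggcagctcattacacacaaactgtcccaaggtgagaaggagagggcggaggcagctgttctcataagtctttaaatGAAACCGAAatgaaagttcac

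The Y box letters lay 50 to 44 bases before the start of H2-Aa, 61 to 55 before that of H2-Eb1 and 63 to 57 before that of H2-DMb1, and 7.23% of all 32851 promoter windows of 250 bases hold them. The X1 core preceded it in H2-Eb1 (91 to 83 bases before the start) and in H2-DMb1 (94 to 86), letters that 1.75% of windows hold. H2-Aa held the X2 core at 74 to 67 bases, found in 1.55% of windows. Ctss held the interferon element at 21 to 13 bases before its start, found in 7.13% of windows. The matches did not overlap each other. The windows of H2-DMa (2 start sites) and Ifi30 held none of these letters, nor the gamma-activated site TTCNNNGAA, which 7.02% of windows hold. The printed genes were thus chosen for their motifs and not for their differences, since H2-DMb1 passed in neither fit and H2-DMa, without a motif, lay nearer to the chains. The letters of the X1 and interferon elements were chosen with these promoters in view, and a match describes the letters only.

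The editor chains did not pass the test with or without the block. H2-DMa, the alpha chain of DM, had signals of 226, 346 and 311 in Trex1 KO hearts, against 360, 665 and 396 in Trex1 WT hearts. The groups did not overlap, as in 5.83% of tested genes with Trex1 KO wholly below Trex1 WT. Its log2 difference was -0.63 (95% interval -1.17 to -0.08, limma adjusted p = 0.870), and it did not pass with the block either (limma adjusted p = 0.288). Together with H2-Ab1, H2-Eb1 and Cd74 it made 4 of 9 members without overlap.

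The brighter probe set shared by H2-DMb1 and H2-DMb2, the beta chains of DM, had signals of 120, 203 and 138 in Trex1 KO hearts, against 131, 336 and 171 in Trex1 WT hearts. The groups overlapped, and the log2 difference of -0.36 did not pass (95% interval -1.09 to 0.37, limma adjusted p = 0.956). Without Trex1 WT B, the highest array, the difference was 0.00. A dimmer probe set of H2-DMb2 alone measured 96.0, 88.8 and 144 in Trex1 KO hearts, against 78.2, 117 and 54.9 in Trex1 WT hearts, and did not pass (limma adjusted p = 0.956). The shared probe sets cannot tell the copies apart.

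Ciita, the transactivator without which class II genes are not transcribed, was close to background in all 6 hearts. The brightest of its 3 probe sets measured 77.7, 95.5 and 124 in Trex1 KO hearts, against 51.4, 140 and 117 in Trex1 WT hearts. Trex1 KO was higher in pairs A and C and lower in pair B, and the groups overlapped. The log2 difference was 0.02 with a 95% interval of -0.76 to 0.81 (limma adjusted p = 0.998). That interval includes the difference of H2-Aa and not those of H2-Ab1, H2-Eb1 and Cd74, and the blocked interval of -0.65 to 0.70 includes none of the 4. The intervals of these 4 genes themselves overlapped that of Ciita in both fits, and whether Ciita differed from them was not tested. The other two probe sets of Ciita stayed under the highest bacterial control on all 6 arrays.

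Ctss and Ifi30 serve class II presentation in the endosome, and neither passed the test with or without the block. Ctss, the cathepsin that makes the last cut of the invariant chain, had signals of 1880, 3423 and 2451 in Trex1 KO hearts, against 2492, 4341 and 1915 in Trex1 WT hearts. It was lower in Trex1 KO in pairs A and B and higher in pair C. The log2 difference was -0.13 (95% interval -0.76 to 0.50, limma adjusted p = 0.979). Ifi30, the lysosomal reductase GILT that opens disulfide bonds of antigens, had signals of 599, 679 and 599 in Trex1 KO hearts, against 558, 882 and 573 in Trex1 WT hearts. Only pair B was lower in Trex1 KO, and the log2 difference was -0.07 (95% interval -0.47 to 0.34, limma adjusted p = 0.984).

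Over the 9 members, 8 log2 differences were below 0 and 1 above, with a median of -0.63, where the median of all 12811 tested genes was -0.02. Within pairs the median was -0.64, -0.86 and -0.33 in A, B and C. The members were chosen with earlier results of these data known, so these counts describe them and test nothing. Adding the Actb ratio to the fit moved the median of the members to -0.14, and the log2 difference to -0.16 for H2-Aa, -0.34 for H2-Ab1, -0.32 for H2-Eb1 and -0.41 for Cd74. The ratio did not overlap between the groups, so this fit cannot tell its part well from that of genotype. Without Trex1 WT B the difference was -0.42 for H2-Aa, -0.51 for H2-Eb1 and -0.36 for H2-DMa.

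The 9 genes did not share 1 pattern across the 6 arrays. Set against the mean centred profile of H2-Aa, H2-Ab1, H2-Eb1 and Cd74, the root mean square difference was 0.04 for Cd74, 0.05 for H2-Eb1, 0.10 for H2-Aa and 0.13 for H2-Ab1 on the log2 scale, all of which enter that profile. H2-DMa, which does not enter it, lay at 0.14 and the shared H2-DMb1/H2-DMb2 probe set at 0.27. Ctss, Ifi30 and Ciita lay farther off, at 0.37, 0.42 and 0.56. Among 12803 other tested genes the nearest were Akap5 (0.17), Irf5 (0.18), Slc25a45 (0.18), Fap (0.19) and Tmem35b (0.20), all farther than H2-DMa. Irf5, a transcription factor of the interferon regulatory family, had signals of 93.7, 161 and 118 in Trex1 KO hearts, against 148, 244 and 168 in Trex1 WT hearts, and did not pass (log2 difference -0.53, limma adjusted p = 0.953).

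Other genes of the class II pathway, in 4 lists with 26 tested genes, gave 0 calls in either direction, with the block or without it. Their median log2 difference was 0.04. Of the 10 tested genes of antigen processing and turnover, 7 were above 0 and 3 below. Ctsz, a lysosomal carboxypeptidase, had signals of 2292, 3004 and 2512 in Trex1 KO hearts, against 1813, 2336 and 1690 in Trex1 WT hearts (log2 difference 0.42, limma adjusted p = 0.777). Ctsl, another cathepsin that can cut the invariant chain, had a difference of 0.15, and Marchf8, a ubiquitin ligase of membrane proteins, one of -0.25 (limma adjusted p = 0.955 and 0.927).

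Of 10 tested transcription factors of class II promoters and of Ciita, 6 were below 0 and 4 above, with a median of -0.06. Rfxap, a subunit of RFX, had signals of 371, 289 and 369 in Trex1 KO hearts, against 402, 456 and 456 in Trex1 WT hearts, just without overlap (log2 difference -0.35, limma adjusted p = 0.927). Irf1, which acts on the interferon gamma inducible promoter of Ciita, had signals of 1061, 1371 and 1120 in Trex1 KO hearts, against 1281, 1654 and 1418 in Trex1 WT hearts. It was lower in Trex1 KO in each pair by -0.34 to -0.27 and did not pass (log2 difference -0.29, limma adjusted p = 0.939). Creb1, the factor of the X2 box, had a difference of -0.17 (limma adjusted p = 0.956).

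The accessory chains were at or near background. H2-Ob never exceeded the highest bacterial control, and H2-Oa lay under the filter. H2-Ea, which the RefSeq gene table lists as a transcribed pseudogene, had signals of 57.1, 109 and 180 in Trex1 KO hearts, against 68.2, 29.0 and 43.3 in Trex1 WT hearts. It was higher in Trex1 KO in pairs B and C and lower in pair A, and did not pass (limma adjusted p = 0.890). H2-DMb2 and H2-Eb2 had differences of 0.36 and 0.24 (limma adjusted p = 0.956 and 0.977). The co-stimulatory molecules Cd80, Cd86 and Cd40, which T cells need beside the class II signal, had differences of -0.23, -0.34 and 0.06, none of which passed (limma adjusted p = 0.963, 0.955 and 0.993).

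Along chromosome 17 the class II genes lie on both sides of 4 genes of class I peptide supply. In the order of the GRCm38.p6 gene table, H2-DMa, H2-DMb2 and H2-DMb1 come before the proteasome and transporter genes Psmb9, Tap1, Psmb8 and Tap2, and H2-Ab1, H2-Aa and H2-Eb1 after them. The 4 class I genes had log2 differences of 0.03, 0.25, 0.51 and 0.37, and none passed (limma adjusted p = 0.995, 0.959, 0.776 and 0.887). Psmb8 and Tap2 were higher in Trex1 KO in 3 of 3 pairs, as were 13.1% of tested genes, while the 3 chains beside them were lower in 3 of 3 pairs. Cd74 lies on chromosome 18, away from this cluster.

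Markers of the cells that usually carry class II did not all move with the chains. Of 13 tested macrophage markers 12 had log2 differences above 0 and 1 below, with a median of 0.29, and 0 passed in either fit. Their summed signal was 22988 to 30746 in Trex1 KO and 18736 to 27960 in Trex1 WT hearts. C1qa, a complement component made by macrophages, had signals of 3797, 4688 and 4308 in Trex1 KO hearts, against 2731, 3558 and 2672 in Trex1 WT hearts (log2 difference 0.52, limma adjusted p = 0.416). Trex1 KO lay wholly above Trex1 WT, as in 5.03% of tested genes, which is the opposite direction to the class II chains. Fcgr1, a high-affinity receptor for antibody, and C1qb had differences of 0.73 and 0.35 (limma adjusted p = 0.684 and 0.942).

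Markers of resident and alternatively activated macrophages were split. The summed signal of all 8 was 5919 to 7323 in Trex1 KO and 7466 to 10051 in Trex1 WT hearts, which did not overlap, and 7 of the 8 differences were below 0. Retnla, which averaged 618 in Trex1 KO and 2007 in Trex1 WT hearts, made up much of the difference in that sum. Taken singly, 2 of the 8, Retnla and Cd163, had Trex1 KO wholly below Trex1 WT, as did 5.83% of tested genes. Retnla, secreted by alternatively activated macrophages, fell (log2 difference -1.76; limma adjusted p = 0.0459). Leaving out any 1 array other than Trex1 KO C ended that call (limma adjusted p = 0.0782 to 0.200), and over all alternatives it held in 6 of 18, with the log2 difference at -1.20 (limma adjusted p = 0.796) once the Actb ratio was added. Cd163, the haemoglobin scavenger receptor, had signals of 193, 209 and 153 in Trex1 KO hearts, against 479, 694 and 382 in Trex1 WT hearts (log2 difference -1.38, limma adjusted p = 0.0504, and 0.00855 with the block). Folr2, another marker of resident macrophages, was on the other side, with a difference of 0.42 (limma adjusted p = 0.812). Mrc1 and F13a1 lay near 0, with differences of -0.07 and -0.06 (limma adjusted p = 0.984 and 0.979). Among monocyte markers Plac8 rose (log2 difference 2.81, limma adjusted p = 0.000679) and Ccr2 did not pass (-0.09, limma adjusted p = 0.992). The part of these cells in the class II difference was not tested, and in whole ventricle RNA fewer cells of a type and less RNA per cell cannot be told apart.

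Dendritic cell markers were dim. Of 9 measured, Xcr1 and Ccr7 never exceeded the highest bacterial control, 7 were tested and 0 passed, with 4 differences above 0, 3 below and a median of 0.09. Their summed signal was 911 to 1018 in Trex1 KO and 799 to 1138 in Trex1 WT hearts, which overlapped. Clec10a had a difference of 0.49, and Flt3 and Batf3, a receptor and a factor of dendritic cell development, had differences of -0.51 and -0.41 (limma adjusted p = 0.951, 0.955 and 0.955).

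Most lymphocyte markers stayed under the filter in both groups, all animals of which lack Rag2. Of 6 B cell markers measured 0 reached the filter, and Cd79a, Cd79b, Blk and Cr2 never exceeded the highest bacterial control. Their summed signal was 121 to 351 in Trex1 KO and 143 to 252 in Trex1 WT hearts. Pax5 reached 129 in Trex1 KO B and 97.3 in Trex1 WT B. Ms4a1 had signals of 82.0, 49.9 and 22.9 in Trex1 KO hearts, against 22.1, 19.4 and 19.4 in Trex1 WT hearts. Of these only the value of Trex1 KO A exceeded the highest bacterial control. Of 5 T cell markers measured, Cd3d, Cd3e and Cd4 never exceeded it. Cd8a, which was tested and did not pass, had signals of 42.1, 67.6 and 190 in Trex1 KO hearts, against 54.9, 122 and 171 in Trex1 WT hearts (log2 difference -0.29, limma adjusted p = 0.974). The summed signal of the 5 was 95.2 to 288 in Trex1 KO and 114 to 272 in Trex1 WT hearts. Endothelial markers, cells in which interferon gamma can induce class II, had a median of -0.26 over 5 tested genes, and 0 passed. Tek, Kdr and Cdh5, receptors and a junction protein of endothelial cells, had differences of -0.36, -0.27 and -0.26 (limma adjusted p = 0.890, 0.934 and 0.955). Tie1 was at -0.06 and Pecam1 at 0.04 (limma adjusted p = 0.984 and 0.989). For Tek and Kdr Trex1 KO lay wholly below Trex1 WT, as in 5.83% of tested genes.

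**Figure D4:**
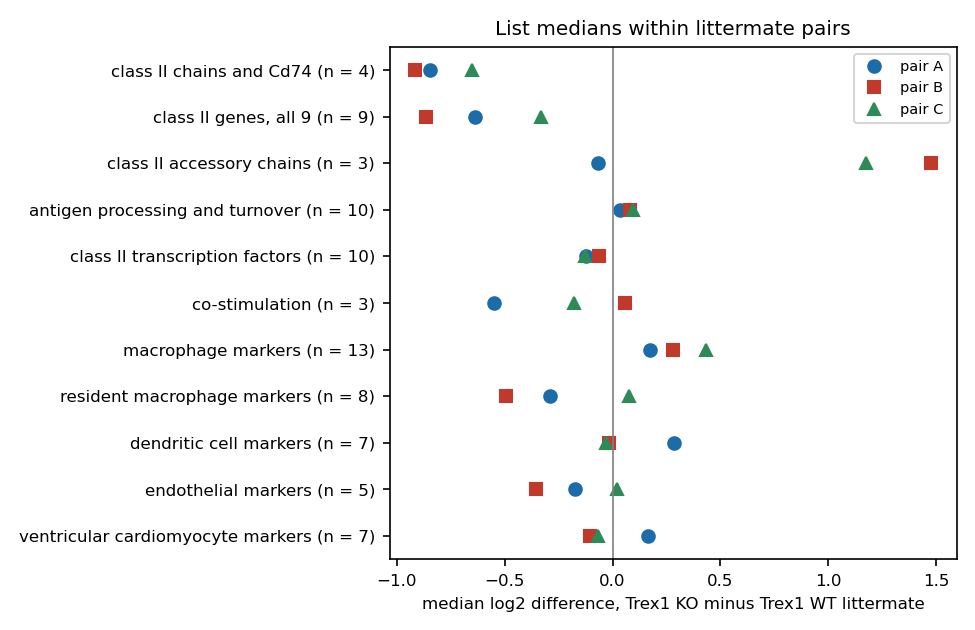
Median log2 difference of the Trex1 KO animal minus its Trex1 WT littermate over the tested genes of each list, in pairs A (circles), B (squares) and C (triangles). The class II chains with Cd74 lie between -0.91 and -0.65 in all 3 pairs, and the macrophage markers lie above 0 in all 3.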

How the data were processed

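Each deposited table holds a linear intensity per probe set, which the authors summarised with MAS5 per the submitters' processing notes. No version or setting of MAS5 is given in the sources used here. The mean of each array, trimmed by 2% at each end, was 500.0, so the values were not normalised again. Signals were transformed to log2(signal + 16), and 27022 of 45037 probe sets whose mean log2 value reached the 40th percentile (6.13) entered limma 3.58.1 under R 4.3.3 (lmFit, eBayes with an intensity trend, two-sided, Benjamini-Hochberg over all of them). Differences are Trex1 KO minus Trex1 WT on that log2 scale, and 4 residual degrees of freedom were left, or 2 once the pair was a block. The method was tested on simulated data with planted changes larger than those of the members, so that test does not bear on their calls.

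Pairs come from the series' design text, which names the littermates. Deviations from group means correlated at 0.147 to 0.192 within pairs and at -0.161 to 0.0101 otherwise, across probe sets. Such deviations sum to 0 within a group, so the low values between non-littermates follow in part from those within pairs and are not separate support. All p-values come from 6 mice, and eBayes sets the spread of each probe set partly from that of other probe sets. The number of arrays limits the precision.

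Symbols came from the platform annotation, and 34741 of 34945 single-symbol probe sets matched the RefSeq table of GRCm38.p6 by identifier, which changed 0 symbols. The brightest single-symbol probe set stood for a gene. The members and lists were chosen with earlier results of these data known. Named were all members, up to 3 genes of each pathway and cell marker list with the smallest unadjusted p, Irf1, Trex1 and the 5 nearest profiles. A further gene of that rule is not reported here. Psmb8, Psmb9, Tap1 and Tap2 were named for their position. Mrc1, F13a1, Tie1, Pecam1, Ms4a1 and Pax5 were named beyond the rule to show the spread of their lists. Alternatives changed the filter, pseudocount, normalization, variance trend, probe set choice, the pair as a block, the Actb ratio and single arrays or pairs. No detection calls or scanner files were analysed here.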

Additional observations from a re-analysis of the deposited data

How the results depend on the processing

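H2-Aa, H2-Ab1, H2-Eb1, Cd74 and H2-DMa had a log2 difference below 0 in all 90 of their values under 18 alternatives each (from -1.19 to -0.14). The block, the filters and the variance trend leave the estimate itself unchanged, so the signs under these alternatives could not differ. The mean of all probe sets likewise left H2-Eb1 and Cd74 unchanged. The count of members called was 0 in each direction under every alternative without the block and 4 lower with the replicate block (littermate pair). Within the blocked fit, in alternatives chosen after seeing the data, it was 4 with pseudocounts of 1 and 64, quantile normalization or no filter, 3 to 5 without 1 pair, and 0 without an intensity trend. H2-Ab1 lost its call without pair A (limma adjusted p = 0.131). The difference shrank most with the Actb ratio (H2-Aa -0.16, H2-Ab1 -0.34, H2-Eb1 -0.32, Cd74 -0.41, H2-DMa -0.14) and, among single arrays, without Trex1 WT B for H2-Aa (-0.42), H2-Eb1 (-0.51) and H2-DMa (-0.36), moves of over 1.5 times. For H2-DMa the mean of all its probe sets, with the dim one included, also gave -0.14. The members' median was -0.14 with the Actb ratio as a covariate and -0.79 to -0.36 without single arrays. The Actb ratio did not overlap between the groups, so its part and that of genotype cannot be told apart well. The 26 pathway genes gave 0 calls under the 18 alternatives and were not counted in the changed versions of the blocked fit.

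Over all probe sets, the counts of 59 higher and 7 lower became 8 and 1 with the Actb ratio, 24 and 4 without an intensity trend, 105 and 16 with the replicate block, 33 to 85 and 3 to 9 without single arrays, and 23, 54 and 34 higher and 0 to 12 lower without pair A, B or C. With the Actb ratio the sign turned for the H2-DMb1/H2-DMb2 probe set (0.18), Ctss (0.71), Ifi30 (0.36), H2-Eb2 (-1.09), Cd40 (-0.55), Flt3 (0.16) and Batf3 (0.42). With the mean of all probe sets it turned for H2-DMb2 (-0.073) and Cd86 (0.17), and with quantile normalization for Ciita (-0.023). Without single arrays the ranges crossed 0 for Ciita (-0.34 to 0.26), Ctss (-0.39 to 0.20), Ifi30 (-0.18 to 0.14), the H2-DMb1/H2-DMb2 probe set (-0.63 to 0.00078), H2-Eb2 (-0.24 to 0.62) and Cd40 (-0.14 to 0.29). Without 1 pair the sign turned for Ciita (-0.20 without A, -0.0052 without C), Ctss (0.0058 without A), Ifi30 (0.081 without B), H2-DMb2 (-0.048 without C), H2-Eb2 (-0.53 without B) and Cd40 (-0.32 without B). None of these genes passed in the fits with or without the block, and the cause was not tested. Dim signals limit what can be said of Ciita, H2-Ob, H2-Oa and the lymphocyte markers.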
